A study of Mus musculus with 6 samples.

Results

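The 32 genes described here carry fatty acids into the heart muscle cell, store them, burn them in mitochondria or regulate that burning. They were taken as a named list, chosen with earlier results of these data known. All 32 were found among the 21887 protein-coding genes of the mouse RefSeq annotation used. The data are lists of peaks of H3K27ac, the acetylation of histone H3 that marks active promoters and enhancers, obtained by CUT&RUN, in which a nuclease tied to an antibody releases the bound chromatin for sequencing. A peak was assigned to a gene when it overlapped the gene or the 5 kb on either side of it. Another protein-coding gene reached into 20 of the 32 windows, so peaks there cannot be given to the listed gene alone.

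Chromatin came from left ventricles of FVB mice aged 8 to 12 weeks, from nuclei sorted with an antibody to PCM-1, which marks cardiomyocyte nuclei. One set of libraries is labelled WT. The other, labelled HOM, came from mice in which Nppa and Nppb, the natriuretic peptide genes, had been deleted by CRISPR. The labels also name the lines Myh6-MerCreMer, nTnG and a Sun1/sfGFP reporter on FVB/N, without saying whether the mice behind these libraries carried them. Each genotype had 3 libraries with separate peak lists, and nothing in the labels says that they came from separate mice, so p-values measure only the spread between these samples and may reflect technical variation. An exact permutation test of 3 libraries against 3 cannot go below 0.1, so no comparison between the genotypes could pass 0.05.

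Adult cardiomyocytes draw most of their energy from fatty acids. Fatty acids are freed from lipoproteins, cross the cell membrane, are activated to acyl-CoA and either enter triglyceride droplets or pass into mitochondria through the carnitine shuttle. There, rounds of dehydrogenation, hydration, a further dehydrogenation and thiolysis shorten the chain, and the electrons go to the respiratory chain. Malonyl-CoA inhibits the carnitine step and so acts as the brake of the pathway.

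The 6 lists differed in length. They held 21340, 72362 and 106605 peaks in WT libraries 1, 2 and 3, and 48102, 1462 and 15184 in HOM replicates 1, 2 and 3, covering between 0.296 and 55.7 Mb. HOM replicate 2 had no peak in any of the 32 windows, and its value is 0 wherever a library is not mentioned below. A peak was present for 2.08% of all protein-coding genes in that library. Values are therefore given for the other 5 libraries unless stated. The labelled cell type was checked on marker genes: 8 of 8 cardiomyocyte markers, such as Myh6 and Tnnt2, had a peak in each of the 5 libraries. Of 6 endothelial markers 1 to 3 had one, Pecam1 in each library, with Cdh5, Tie1 and Emcn at 0 in every library. Among 6 adipocyte markers and 6 fibroblast markers, at most 1 of each had a peak in a library, Plin1 in WT replicate 2 and Tcf21 in WT replicate 3. Adiponectin (Adipoq), Cidec, Col1a1, Pdgfra and Dcn were at 0 throughout. The summed covered length was at most 452 bp for adipocyte markers, at most 315 bp for fibroblast markers, and 209 to 3186 bp for endothelial markers, beside 9563 to 122769 bp for cardiomyocyte markers.

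Acetylation was found at nearly every gene of the list. The list was chosen with earlier results of these data known, so its contrast with all genes may reflect that choice. Of the 32 genes, 27, 32 and 32 had a peak in WT libraries 1, 2 and 3, and 32 and 30 in HOM replicates 1 and 3. Over the 5 libraries the share was 95.6 ± 6.85% (SD, n = 5), beside 36.2 ± 16.0% for all protein-coding genes. With HOM replicate 2 included, it was 79.7 ± 39.5% (SD, n = 6) against 30.5 ± 20%. A peak in all 5 libraries was present at 27 of the 32 genes, or 84.4%, and at 14.4% of all protein-coding genes. The exceptions were Dgat1 and Etfa, each without a peak in WT replicate 1 and HOM replicate 3, and Acads, Echs1 and Etfdh, each without a peak in WT replicate 1. Peaks were also numerous, with a median of 4, 10 and 10.5 per gene in the WT libraries and 6 and 2.5 in HOM replicates 1 and 3. The median over all protein-coding genes was 0 in each of these libraries except WT replicate 3, where it was 1. The median window was 30.9 kb for the 32 genes and 27.2 kb for all genes.

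**Figure D1:**
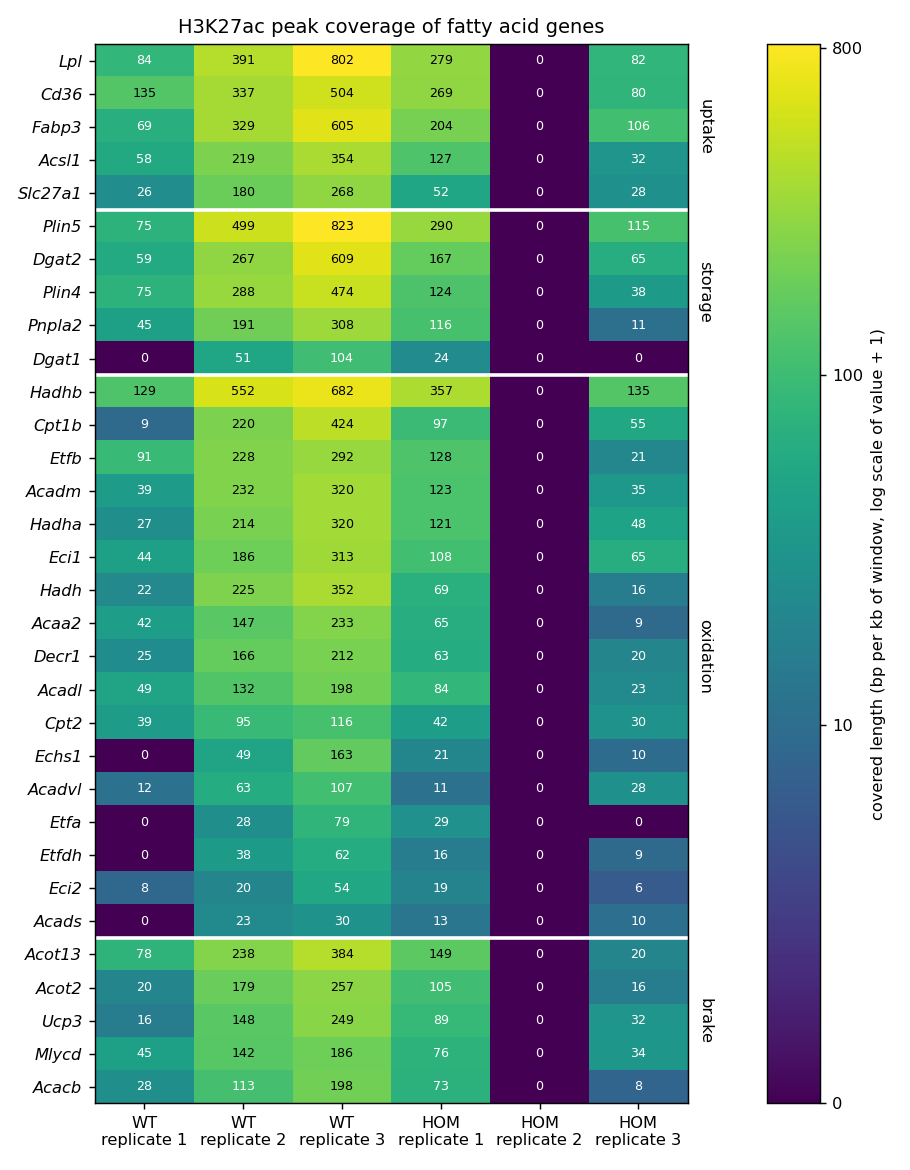
Base pairs of each gene window covered by H3K27ac peaks, per kb of window, for the 32 genes (rows, grouped by role) in the 6 libraries (columns). Colour follows a log scale of the value plus 1 and the printed numbers are the values, from 0 in HOM replicate 2 to 823 at Plin5 in WT replicate 3.

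The uptake genes were the most densely acetylated group, with a higher median covered length per kb than storage, oxidation and brake genes in 5 of 5 libraries. Lpl encodes lipoprotein lipase, which frees fatty acids from circulating lipoproteins, and its 36.4 kb window on chromosome 8 held 11, 27 and 26 peaks in WT libraries 1, 2 and 3 and 34 and 8 in HOM replicates 1 and 3. Peaks covered 84.2, 391 and 802 bp per kb of window at Lpl in WT, with 279 and 81.8 in HOM replicates 1 and 3. WT replicates 2 and 3 were thus the high libraries at Lpl, and the ranges of the genotypes overlapped. Cd36, the membrane translocase for long-chain fatty acids, had 39, 53 and 54 peaks in WT against 53 and 25 in HOM, the highest number of the 32 genes in each of the 5 libraries. Its covered length was 135, 337 and 504 bp per kb in WT beside 269 and 80.1 bp per kb in HOM. The strongest peak at Cd36 stood at percentile 98.5 to 99.9 of fold within its own list, fold being the authors' enrichment at the peak summit. Its summit lay between positions 17882062 and 17886529 of chromosome 5 in the 5 libraries. That is close to the upper end of the annotated gene at 17888959, which on the minus strand is its 5′ end.

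Fabp3, the heart fatty acid binding protein of the cytosol, had 5, 9 and 11 peaks in WT, with 9 and 6 in HOM within a window of 16.7 kb. Acsl1, the long-chain acyl-CoA synthetase that activates fatty acids, had its strongest summit within 462 bp in the 5 libraries, 8374 to 8836 bp downstream of the listed start. The lowest of the uptake genes was Slc27a1, a fatty acid transport protein, with 3, 13 and 10 peaks in WT against 5 and 2 in HOM. Even so, peaks covered more of the Slc27a1 window per kb than of at least 92.3% of protein-coding windows in the 5 libraries, by mid rank.

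Among storage genes, the droplet coat proteins and Dgat2 were rich in peaks and Dgat1 was poor. Plin5, a droplet protein that links droplets to mitochondria, had 3, 17 and 13 peaks in WT beside 16 and 6 in HOM in a window of 16 kb. Covered length at Plin5 was 75.4, 499 and 823 bp per kb in WT, with 290 and 115 in HOM. Plin4, another droplet coat protein, is its neighbour on chromosome 17, and 2 to 8 peaks per library lay in both windows, among them the strongest peak of each. Dgat2, which catalyses the last step of triglyceride synthesis, had 8, 26 and 24 peaks in WT against 23 and 11 in HOM. Dgat1, which catalyses the same step, had 0, 3 and 5 peaks in WT beside 1 and 0 in HOM. The strongest Dgat1 peak stood at percentiles 57.6 and 77.7 of fold in WT replicates 2 and 3, and Dgat2 stood at 97.5 and 98 there. Pnpla2, the triglyceride lipase of the droplet, had 1, 6 and 11 peaks in WT against 4 and 1 in HOM. Its strongest summit stayed within 461 bp in the 5 libraries.

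The 17 genes of mitochondrial oxidation spanned the widest range. Hadhb, the thiolase subunit of the trifunctional protein, led the 32 genes by mean covered length per kb, with 129, 552 and 682 bp per kb in WT against 357 and 135 in HOM. Its peaks numbered 18, 23 and 16 in WT beside 26 and 16 in HOM, and 3 to 11 of them lay also in the window of Hadha. Hadha encodes the partner subunit and is transcribed in the opposite direction, with 272 bases between the listed starts. Cpt1b, the muscle form of the outer-membrane carnitine palmitoyltransferase, had 1, 14 and 10 peaks in WT, with 5 and 5 in HOM. Its single peak in WT replicate 1 was weak, at percentile 3.41 of fold, against 95.8 for its strongest peak in WT replicate 3. The Cpt1b window also holds Chkb, so its peaks cannot be given to 1 of these genes.

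Etfb, a subunit of the flavoprotein that takes electrons from the dehydrogenases, had 5, 8 and 5 peaks in WT against 6 and 2 in HOM. Covered length at Etfb was 90.9, 228 and 292 bp per kb in WT beside 128 and 21.2 in HOM. Acadm, the medium-chain dehydrogenase, had 5, 15 and 16 peaks in WT, with 11 and 5 in HOM, and its strongest peak stood at percentile 82.3 to 99.6 of fold. The short-chain dehydrogenase gene Acads was the lowest, with 0, 2 and 2 peaks in WT against 1 and 1 in HOM. The 4 acyl-CoA dehydrogenases thus differed, with mean covered lengths over the 5 libraries of 149.9 bp per kb at Acadm, 97.2 at the long-chain gene Acadl, 44.3 at the very-long-chain gene Acadvl and 15.5 at Acads.

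Eci2, an enoyl-CoA isomerase, and Etfdh, which passes electrons from the flavoprotein to ubiquinone, were also low. Eci2 had 2, 2 and 5 peaks in WT beside 3 and 1 in HOM, and Etfdh 0, 2 and 4 in WT, with 2 and 1 in HOM. The 3 parts of the electron transfer route were unequal, at a mean over the 5 libraries of 152 bp per kb for Etfb, 27.1 for Etfa and 25.1 for Etfdh. On the same measure Cpt2, the inner-membrane carnitine palmitoyltransferase, was at 64.3, and Hadh, a hydroxyacyl-CoA dehydrogenase, at 137. Eci1 stood at 143, the dienoyl-CoA reductase Decr1 at 97.2, the thiolase Acaa2 at 99.2 and the hydratase Echs1 at 48.5 bp per kb. A few oxidation genes kept the place of their strongest peak. The summit varied by 256 bp at Decr1, 306 bp at Acadvl, 719 bp at Acaa2 and 938 bp at Eci2 over the 5 libraries. Of the 27 genes with a peak in all 5 libraries, 7 had the strongest summit within 1000 bp, or 25.9%, beside 23.1% of all such protein-coding genes.

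The brake group held the malonyl-CoA genes, thioesterases and an uncoupling protein. Acacb makes malonyl-CoA at the mitochondrial surface and Mlycd degrades it. Acacb had 12, 36 and 38 peaks in WT against 27 and 3 in HOM, but spread over a window of 114 kb. Per kb it was the lowest of its group, with 27.6, 113 and 198 bp covered in WT beside 73.2 and 8 in HOM. Mlycd had 4, 5 and 7 peaks in WT, with 5 and 4 in HOM, few but strong, at percentile 96.8 to 99.8 of fold in the 5 libraries. Acot13, a thioesterase that frees fatty acids from acyl-CoA, was the highest, with 7, 11 and 10 peaks in WT against 7 and 2 in HOM and 77.9, 238 and 384 bp per kb in WT beside 149 and 20.1 in HOM. The mitochondrial thioesterase Acot2 had 1, 7 and 7 peaks in WT against 5 and 1 in HOM. Its peaks covered 20.5, 179 and 257 bp per kb in WT against 105 and 16.3 in HOM. Its strongest summit stayed within 560 bp. Ucp3, the mitochondrial uncoupling protein of muscle, had 1, 7 and 6 peaks in WT beside 8 and 3 in HOM.

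Set side by side, uptake and storage genes had more peaks per length than oxidation genes. The median number of peaks per 10 kb of window was 2.99, 4.55 and 4.6 for uptake genes in WT, with 4.52 and 2.13 in HOM replicates 1 and 3. For storage genes it was 1.87, 6.2 and 6.15 in WT against 4.13 and 1.03 in HOM. For oxidation genes it was 0.822, 2.88 and 2.59 in WT beside 1.35 and 0.787 in HOM, and for brake genes 1.05, 3.15 and 3.32 in WT, with 2.97 and 0.85 in HOM. By this median oxidation genes were below the 3 other groups in 5 of 5 libraries, and uptake was above storage in 3 of 5. For all protein-coding genes this median was 0 in 4 of these libraries and 0.268 in WT replicate 3. With peaks pooled over a group's windows, brake was below oxidation in HOM replicate 3, at 0.606 against 0.973 per 10 kb. Storage was then above uptake in 3 of 5 libraries. Median windows were 36.4 kb for uptake, 19.4 kb for storage, 35 kb for oxidation and 23.5 kb for brake genes. Groups of 5 genes are small, their members share the libraries, and the differences between roles were not tested.

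**Figure D2:**
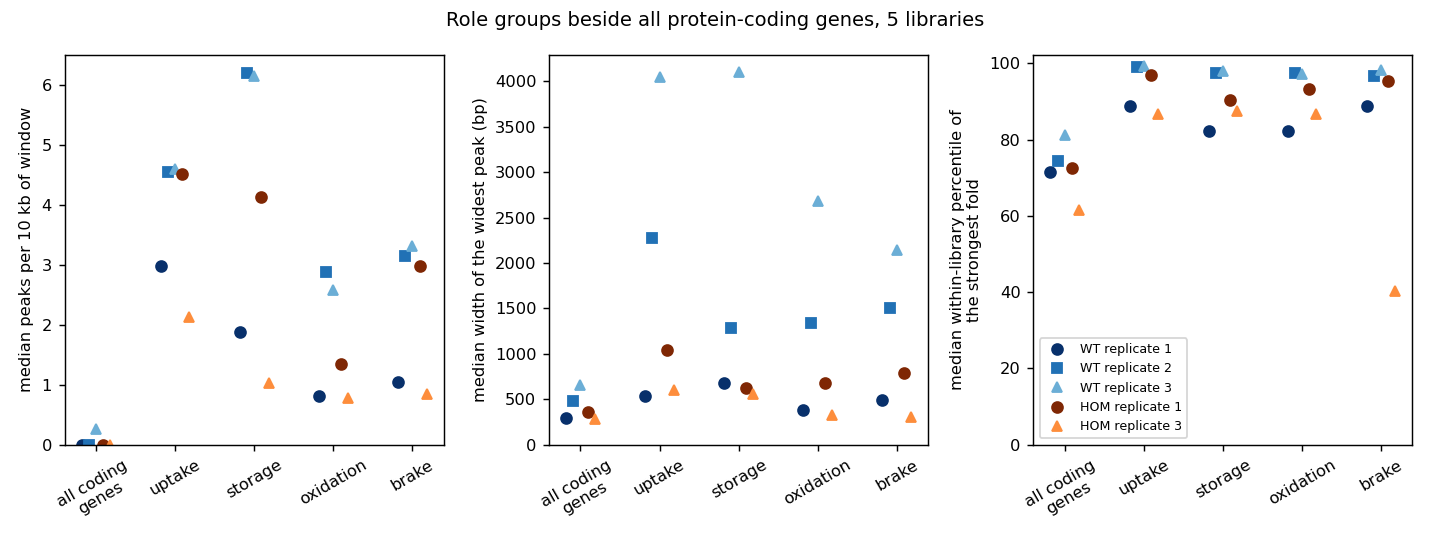
Medians over the genes of each role group and over all protein-coding genes, 1 point per library for 5 libraries: peaks per 10 kb of window (left), width of the widest peak in bp among genes with a peak (middle) and within-library percentile of the fold of the strongest peak (right). Each role group lies above all protein-coding genes in each library, apart from brake genes in HOM replicate 3 at right (40.4 against 61.6).

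Peaks at these genes were wide. The median width of a gene's widest peak was 500, 1490.5 and 3043.5 bp in WT libraries 1, 2 and 3 beside 726.5 and 404.5 bp in HOM replicates 1 and 3. For all protein-coding genes with a peak it was 299, 477, 656, 365 and 282 bp in the same order. For the 8 cardiomyocyte markers it was 445.5, 1185, 3139.5, 812 and 372.5 bp, so such widths were not particular to the pathway. Uptake genes had wider peaks than oxidation and brake genes in 5 of 5 libraries, at 537, 2276 and 4050 bp in WT against 1041 and 600 bp in HOM. The widest single peak at Cd36 was 7495 bp in WT replicate 2 and 7621 bp in WT replicate 3. A gene with many peaks has more chances of a wide one. Over every peak in the 32 windows, the median width was 251, 305.5 and 381.5 bp in WT and 294 and 238 bp for HOM, beside 240, 286, 292, 259 and 231 bp for peaks in all protein-coding windows.

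By fold, the strongest peak of a gene stood at a median percentile of 82.3, 97.5 and 98.2 in WT libraries 1, 2 and 3 and of 91.8 and 81.7 in HOM replicates 1 and 3. All protein-coding genes with a peak had medians of 71.5, 74.4, 81.3, 72.6 and 61.6. Brake genes were the exception in HOM replicate 3, with a median of 40.4. The 8 cardiomyocyte markers had medians of 80.2, 97.1, 98.2, 92.9 and 81.7 in the same order of libraries, near those of the 32 genes. Here too the number of peaks matters, because the strongest of many ranks higher. Among single peaks in the 32 windows, 15.4% and 19.1% stood above percentile 90 of fold within their list in WT replicates 2 and 3, 14.6% in HOM replicate 1 and 10.6% in HOM replicate 3. In WT replicate 1 it was 7.45%. For peaks in all protein-coding windows these shares were 10.5%, 9.87%, 10.7%, 8.39% and 7.46%. The median percentile of single peaks was higher in the 32 windows in WT replicates 2 and 3, at 57.6 against 44.7 and 59 against 48. It equalled that in all protein-coding windows in WT replicate 1 (55.3), HOM replicate 1 (46.6) and HOM replicate 3 (40.4). Lists of different length do not allow a change to be read from such ranks.

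At gene starts, the listed genes were marked more often than other genes. For 25 of the 32 genes a listed start and promoter were matched in the RefSeq promoter table. A peak overlapped the 300 bases around the start at 8, 21 and 23 of the 25 genes in WT libraries 1, 2 and 3, and at 12 and 8 in HOM replicates 1 and 3. These shares, 32%, 84%, 92%, 48% and 32%, stood beside 4.02%, 19%, 32.3%, 11.1% and 2.96% of 17492 protein-coding genes. Etfb, Acot2 and Ucp3 had a start peak in all 5 libraries, or 12% of the 25, against 0.846% of all genes. Acacb had none at its listed start, and its strongest summit lay far from it. Relative to the listed start it was at -17863 and -19043 bp in WT replicates 2 and 3 and at -17640 bp in HOM replicate 3, near the lower end of the annotated gene at 114146321 on chromosome 5. In WT replicate 1 and HOM replicate 1 it was 12919 and 10055 bp downstream.

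**Figure D3:**
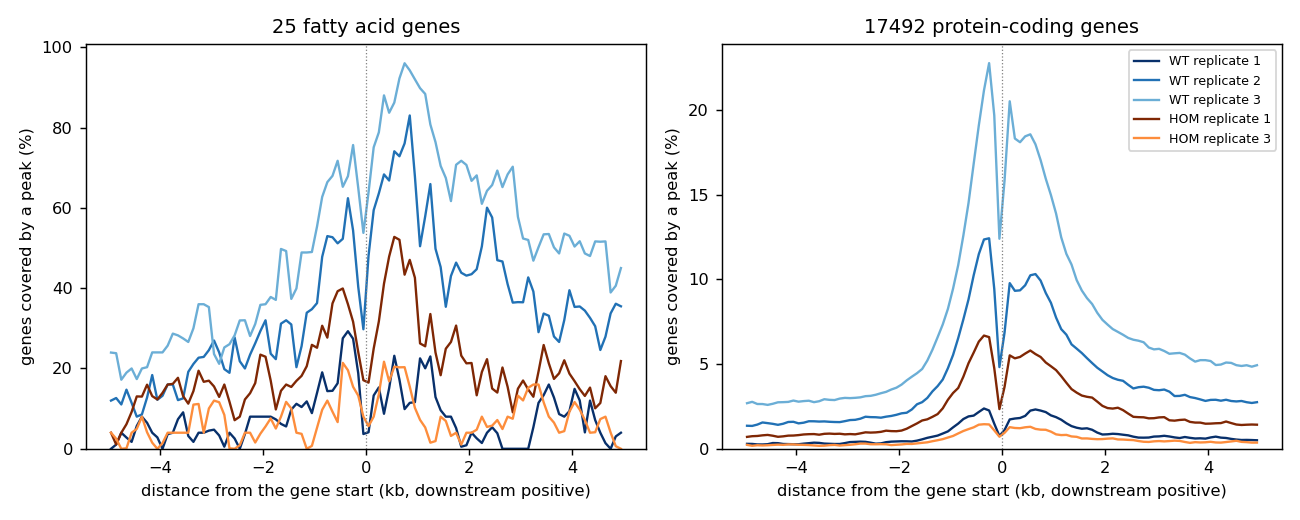
Share of genes covered by a peak, averaged over the bases of each 100 bp step around the gene start, for the 25 pathway genes with a listed start (left) and for all protein-coding genes (right), 1 line per library. The vertical scales differ, with maxima of 96% at left and 22.8% at right, both in WT replicate 3.

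Coverage around these starts had its maximum downstream in WT replicates 2 and 3 and HOM replicate 1. Coverage here is the share of genes covered, averaged over the bases of a 100 bp step, and not a count of genes with a peak. In WT replicates 2 and 3 it reached 83% and 96% in the 100 bp steps that begin 800 and 700 bp downstream of the start, and in HOM replicate 1 it reached 52.8% at 500 bp. HOM replicate 3 had near equal values of 21.7% at 300 bp downstream and 21.4% at 500 bp upstream. WT replicate 1 had its maximum of 29.3% at 400 bp upstream. Over all protein-coding genes the maximum lay 300 or 400 bp upstream in each of the 5 libraries. At the start itself coverage was lower. In the 100 bp step that begins at the start it was 4.12%, 48.1% and 63.8% in WT for the 25 genes, with 16.5% and 5.64% in HOM. Over all protein-coding genes it was 0.943% to 15.8%.

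The promoters with a peak in all 5 libraries are shown with the stretch shared by Hadhb and Hadha, which lies between their starts. Each sequence is the 250 bases before the listed start in RefSeq GRCm38.p6, 5′ to 3′, and all are on the plus strand. Capitals mark AGGTCA, the element bound by nuclear receptors such as the PPAR and ERR factors, GGGCGG, the GC box, and CCAAT, each on either strand.
Etfb, chr7:43443822-43444071: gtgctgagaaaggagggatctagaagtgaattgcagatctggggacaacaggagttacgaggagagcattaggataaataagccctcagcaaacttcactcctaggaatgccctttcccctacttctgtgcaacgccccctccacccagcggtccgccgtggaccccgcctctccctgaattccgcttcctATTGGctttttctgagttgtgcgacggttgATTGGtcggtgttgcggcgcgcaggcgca
Acot2, chr12:83987611-83987860: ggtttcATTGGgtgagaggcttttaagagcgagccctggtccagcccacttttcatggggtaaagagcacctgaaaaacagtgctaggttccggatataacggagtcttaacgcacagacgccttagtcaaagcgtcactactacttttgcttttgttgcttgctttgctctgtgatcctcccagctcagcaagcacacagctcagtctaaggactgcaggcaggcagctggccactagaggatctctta
Ucp3, chr7:100472741-100472990: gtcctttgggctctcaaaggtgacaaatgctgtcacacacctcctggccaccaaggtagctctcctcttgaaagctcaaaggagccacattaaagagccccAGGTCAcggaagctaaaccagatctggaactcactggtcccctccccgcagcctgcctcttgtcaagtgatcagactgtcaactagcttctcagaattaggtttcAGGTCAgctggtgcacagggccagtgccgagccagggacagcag
Hadhb, chr5:30155003-30155252: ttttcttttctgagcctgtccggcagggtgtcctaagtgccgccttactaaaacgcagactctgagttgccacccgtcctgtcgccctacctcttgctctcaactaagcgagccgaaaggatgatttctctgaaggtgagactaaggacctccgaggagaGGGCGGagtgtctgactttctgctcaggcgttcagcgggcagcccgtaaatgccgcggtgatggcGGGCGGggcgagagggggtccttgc

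Ucp3 held AGGTCA at 149 and 44 bases before the start. Etfb held CCAAT on the opposite strand at 59 and 29 bases before the start and Acot2 once at 244, printed as ATTGG. Hadhb held GGGCGG at 90 and 25 bases before its start. AGGTCA was found in this window at 6 of the 25 genes, namely Cd36, Plin5, Acadvl, Acadm, Echs1 and Ucp3, or 24%, and at 14.6% of all protein-coding genes. GGGCGG was found at 14 of 25 (56%) and 45.8% of all genes, CCAAT at 13 of 25 (52%) and 39.5%, and TATAAA at Acacb alone among the 25 (4%) and at 13.7%. The longer ERR motif TNAAGGTCA and the PPAR type direct repeat, AGGNCA repeated after a spacer of 1 base, were in 0 of the 25 windows and in 1.11% and 0.383% of all. The longer motifs contain or partly match AGGTCA, so the counts overlap. A match is a description of letters and was not tested as a site.

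Between genotypes, covered length at these genes followed the length of the lists. At 30 of the 32 genes it was highest in WT replicate 3, then WT replicate 2, then HOM replicate 1, and lowest among the 5 libraries in WT replicate 1 and HOM replicate 3, in either order. The same order held for 26 of the 27 genes with a peak in all 5 libraries (96.3%) and for 88.3% of all such protein-coding genes. Coverage was therefore scaled to the length covered genome wide in the same library, giving bp per Mb covered. Equal scaling does not make lists of unequal length alike.

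With all 6 libraries, 2 of 32 genes had 3 WT values above 3 HOM values, Plin4 and Acaa2, or 6.25%. Among all 21887 protein-coding genes the same pattern held for 4.69%. The reverse pattern was met by 0 of the 32, against 0.114% of all genes, and could not be met by a gene at 0 in HOM replicate 2. Plin4 had 218, 176 and 165 bp per Mb for WT beside 140, 0 and 161 in HOM. The gap between the lowest WT and the highest HOM library at Plin4 was narrow. WT averaged 186 ± 27.9 and HOM 100.3 ± 87.6 bp per Mb (SD, n = 3 each). HOM minus WT was -85.9, and the two-sided exact permutation test gave p = 0.1, its smallest value. At Plin4 the genotypes overlapped with 1 kb or 10 kb on each side in place of 5 kb (exact permutation p = 0.3 and 0.8), and HOM minus WT turned to 29.3 bp per Mb with peaks at −log10 q of at least 5 and to 221 with lists limited to the shortest. Acaa2, the thiolase of the last oxidation step, had 231, 172 and 155 bp per Mb for WT beside 140, 0 and 75.7 in HOM. WT averaged 186 ± 39.9 and HOM 71.8 ± 70.0 bp per Mb (SD, n = 3 each). HOM minus WT was -114, with p = 0.1 in the same exact test. At Acaa2 the genotypes overlapped with the gene body alone, with 1 kb on each side and at −log10 q of at least 5 (exact permutation p = 0.2, 0.2 and 0.4). With 5 kb on each side and all 6 libraries, a p of 0.1 was thus reached by 2 of 32 genes and by 4.81% of all protein-coding genes. The Benjamini-Hochberg adjusted p of the exact permutation tests over all protein-coding genes was 1 for each of the 32 genes. At an adjusted p of 0.05 the test called 0 of 21887 genes, and none could fall under an unadjusted 0.05. HOM replicate 2, at 0, lay below every WT value of these 2 genes and lowered their HOM means. Without HOM replicate 2 the differences at Plin4 and Acaa2 were -35.8 and -78.1 bp per Mb. The exact permutation test then gave p = 0.2 at Plin4 and p = 0.1 at Acaa2, where 0.1 is again the smallest possible.

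**Figure D4:**
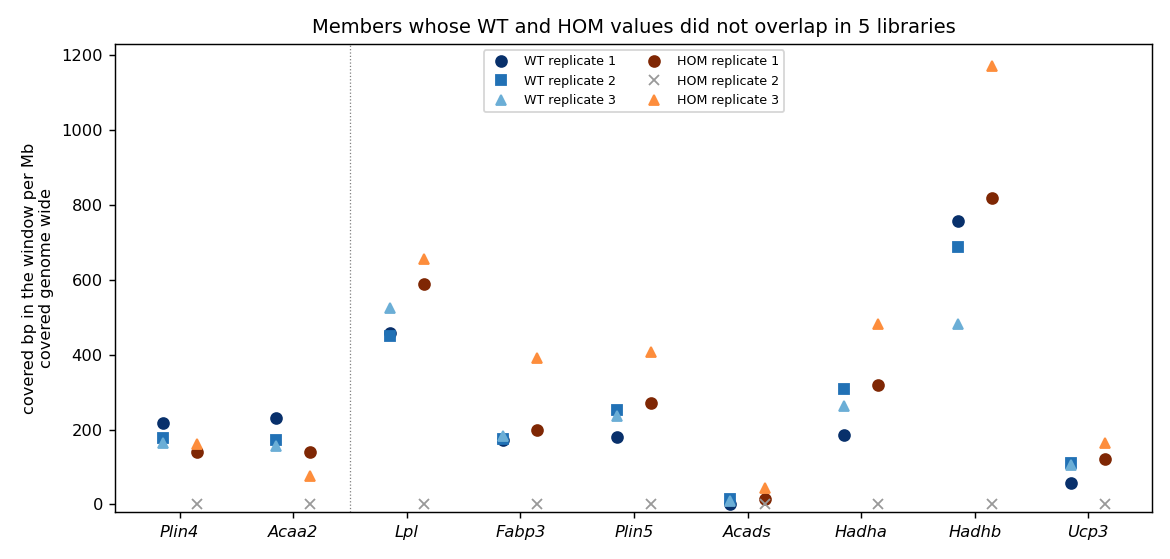
Covered bp in the gene window per Mb covered genome wide, 1 point per library, for the genes whose WT and HOM values did not overlap when HOM replicate 2 is set aside. Plin4 and Acaa2, left of the dotted line, were higher in WT, and the other genes were higher in HOM replicates 1 and 3, while HOM replicate 2 was at 0 for each.

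Without HOM replicate 2, 7 of 32 genes, or 21.9%, had both HOM values above the 3 WT values, against 2.36% of all protein-coding genes. Plin4 and Acaa2 kept the opposite pattern, against 4.84% of all genes. Among the 27 genes with a peak in all 5 libraries the HOM-high count was 6, or 22.2%, beside 12.9% of the 3147 protein-coding genes with such peaks. The WT-high count was 2 of these 27 genes, or 7.41%, beside 7.79%. The 7 genes were the uptake genes Lpl and Fabp3, the storage gene Plin5, the oxidation genes Acads, Hadha and Hadhb, and Ucp3. Hadha and Hadhb share peaks, and Plin5 shares peaks with Plin4, which went the other way.

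Lpl had 458, 450 and 524 bp per Mb for WT beside 590 and 655 in HOM replicates 1 and 3. Fabp3 had 172, 174 and 182 in WT against 199 and 391 in HOM. Hadhb had 757, 686 and 482 in WT beside 818 and 1171 in HOM. At these genes HOM replicate 3, with the shorter list, was the highest library, and HOM replicate 1 stood closer to WT. Hadha had 186, 308 and 262 bp per Mb for WT beside 319 and 481 in HOM, and Plin5 180, 253 and 237 in WT, with 270 and 406 in HOM. Ucp3 had 56.6, 109 and 105 in WT against 121 and 164 in HOM, but with peaks at −log10 q of at least 5 it was higher in WT. Acads had 0, 14.1 and 10.4 in WT beside 14.5 and 44 in HOM, with a gap that is small beside the spread.

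These counts depended on the length of the lists. With the 5 lists limited to 15184 peaks each, the number of HOM replicate 3, 0 of the 32 genes were higher in HOM, against 1.91% of all genes. Plin4, Acaa2, Eci2 and Etfb were then higher in WT (12.5%, against 2.47% of all genes). Without scaling, 0 of the 32 genes were separated in either direction, with all 6 libraries or without HOM replicate 2, against 3.25% of all genes with WT above and 0% and 0.00457% with HOM above. The length and stringency of the lists move with this result, and their part in it was not tested. The median log2 ratio of mean HOM to mean WT coverage per Mb, over genes with a peak in all 5 libraries, was 0.30 for 27 pathway genes, 0.37 for 8 cardiomyocyte markers and 0.06 for all 3147 such genes. By role it was 0.32 for 5 uptake, 0.31 for 13 oxidation, 0.13 for 5 brake and 0.02 for 4 storage genes. Differences between roles were not tested. For 16 other genes of fatty acid metabolism it was 0.15. In bulk nuclei, fewer cells with a mark and less mark per cell cannot be told apart.

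The libraries could also be split by peaks on the Y chromosome. WT replicate 1 and HOM replicate 1 had 111 and 112 such peaks and the others 1 to 5. In that pair, with 1 library each, 14 of 32 genes were higher in WT while 18 were higher in HOM, against 13.7% and 24.8% of all genes. A gene without a peak in either library cannot be called. A peak was present for 23.2% of all genes in WT replicate 1 and 36.6% in HOM replicate 1. HOM replicate 1 had one at each of the 32, so these shares are unlike and nothing is read from them. In the remaining 2 WT and 2 HOM libraries 10 of the 32 were higher in both WT libraries (31.2%, against 33.7% of all protein-coding genes) and 0 in both HOM libraries (0.772% of all genes). The latter could not occur at these 32 genes, since HOM replicate 2 belongs to this set and was at 0. Plin4, Acaa2, Etfb and Acot13 were higher in WT in both sets. The share of all genes with this joint pattern is not given, so no result is read from it.

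Other genes of fatty acid metabolism were marked less often than the 32. The lists were chosen with earlier results of these data known, so this contrast may reflect that choice. Of 35 further genes, 19, 25 and 32 had a peak in WT libraries 1, 2 and 3 and 24 and 18 in HOM replicates 1 and 3, and 16 had one in all 5. Among those 16 were Lpin1, a phosphatidate phosphatase of triglyceride synthesis, with 25, 56 and 54 peaks in WT, with 43 and 12 in HOM, and Vldlr, the lipoprotein receptor, with 9, 19 and 26 in WT against 25 and 11 in HOM. Cpt1a, the form of the carnitine enzyme known from liver, had 2, 12 and 18 peaks in WT beside 7 and 3 in HOM, with a mean covered length over the 5 libraries of 47.1 bp per kb against 161 at Cpt1b. Fasn, the fatty acid synthase, had 0, 2 and 1 peaks in WT, with 0 in HOM. Acaca, the lipogenic counterpart of Acacb, had 0, 3 and 6 in WT against 1 and 0 in HOM, with a mean of 2.49 bp per kb beside 84 at Acacb. Fabp4, Gpihbp1 and Acsl5, known from fat, capillary endothelium and gut, had no peak in any library. With all 6 libraries, 2 of the 35 were higher in WT, Acsl6 and Ehhadh, or 5.71% against 4.69% of all genes, and 0 in HOM against 0.114%. Without HOM replicate 2, 4 were higher in HOM, namely Vldlr, Plin3, Gpam and G0s2, or 11.4%, against the 2.36% of all genes. These 4 were among the 16 genes with a peak in all 5 libraries, and 12.9% of all protein-coding genes with such peaks were higher in HOM. Acsl6 and Ehhadh stayed higher in WT (5.71%, against 4.84% of all genes).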

How the data were processed

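H3K27ac CUT&RUN peak lists of 6 libraries were analysed. Per the submitters' processing notes, reads were handled with BWA and MACS2 on mm10, and the sources used here give no versions. The deposited lists hold for each peak a score, the fold enrichment of its summit, −log10 of p and q, and a summit offset, all set by the authors' peak caller for each library separately. They hold no read counts, so depth is unknown. Scores were not used, and fold served to rank peaks within a list, with ties at mid rank.

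Genes came from RefSeq GRCm38.p6, the assembly of mm10, on chromosomes 1 to 19, X and Y. All 93 listed symbols were found there. Windows were the gene and 5 kb on each side, and an overlap of 1 bp counted. Positions are 1-based. Covered length was divided by the Mb covered in the library. Each protein-coding gene was tested with a two-sided exact permutation test over 20 assignments, with Benjamini-Hochberg adjustment over 21887 genes. Gene and list choices were made with earlier results of these data known. Library values are given for the members with the highest and lowest mean covered length per kb in each role and for those whose genotypes did not overlap, and Mlycd, the other values named and the sequences shown were chosen after values were seen, since no promoter met the planned motif rule. Alternatives are given in the closing section. Window counts were tested on simulated data. The work used pandas 2.3.3 and numpy 2.4.6 in Python 3.11.15, with scipy 1.17.1 and, for plots, matplotlib 3.10.9.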

Additional observations from a re-analysis of the deposited data

How the results depend on the processing

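Of 32 genes, 2 were higher in WT and 0 in HOM with 6 libraries. With 5 kb on each side, HOM replicate 2 was at 0 for all 32. No gene could then be higher in HOM in a run that kept this library, so a 0 there is no result. Each count below is followed by the share of all genes with the same pattern. The number higher in WT was 1 with the gene body alone (3.53%), 0 with 1 kb on each side (4.05%), 0 unscaled (3.25%), 4 with 5 lists at equal length (2.47%), and 14 (13.7%) and 10 (33.7%) in the libraries with and without Y chromosome peaks, where 18 (24.8%) and 0 (0.772%) were higher in HOM. The shares over all genes include genes without any peak, which cannot be called. With same-numbered libraries as a replicate block, 4 genes were lower in HOM in every pair (8.15%), and 0 higher (0.238%). The latter could not occur, since HOM replicate 2 was at 0 in its pair. The numbers pair nothing in the labels, and the deviations of libraries 1, 2 and 3 correlated at -0.29, -0.16 and 0.06 over 3147 genes. The sign-flip p was 0.25 for Plin4 and Acaa2, the smallest possible. Leaving out libraries, the number higher in WT ran from 2 to 6 with 1 library left out, being 4 without WT replicate 1 (21.3%), 6 without HOM replicate 1 (11.4%) and 5 without HOM replicate 3 (6.25%), and from 0 to 6 when HOM replicate 2 was left out together with another library or setting. The number higher in HOM ran from 0 to 7 with 1 library left out, 7 being without HOM replicate 2 (2.36%). With HOM replicate 2 and 1 other library out it was 12 (4.8%), 8 (3.16%) and 8 (3.23%) without WT replicates 1, 2 and 3, and 17 (7.54%) and 11 (9.78%) without HOM replicates 1 and 3. With HOM replicate 2 out and other settings it was 2 in the gene body (1.89%), 6 with 1 kb (2.18%), 5 with 10 kb (2.7%), 7 with 50% of the peak inside (2.36%), 2 with the stronger 50% of peaks (1.82%), 1 at −log10 q of at least 5 (1.06%), and 0 unscaled (0.00457%). At −log10 q of at least 5, Ucp3 turned from higher in HOM to higher in WT, together with Slc27a1 (2 genes, 1.86%). These combinations were chosen after the data were seen. Plin4 turned to 29.3 bp per Mb at −log10 q of at least 5 and to 221 with lists limited to the shortest. Acaa2 kept its sign in every alternative run. Its genotypes were not separated with the gene body alone, with 1 kb on each side or unscaled. Nor were they at −log10 q of at least 5 or with lists limited to the shortest. With lists limited to 1462 peaks, the mean share of genes with a peak was 22.9%, the median number of peaks 0 and the median fold percentile 62.6. That percentile was 79.1 at −log10 q of at least 5 and 90.3 as reported. The shortened lists held fewer peaks, and percentiles were ranked anew within them. The causes of these and the other changes were not tested. The lists carry no depth, so a gene without a peak is not shown to lack acetylation.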
